A study of Mus musculus with 2 samples.

Results

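The 44 collagen chain genes are all gene columns, present in both tables of the study, whose symbol reads Col, a number, a and a number, out of 43026 gene columns in all and 36245 that both tables share. The study measured RNA in single cells of mouse testis, with 1 library from animals aged 2 months, called young here, and 1 from animals aged 24 months, called aged. The number of mice behind each library, their strain and their genotype are not given in the sources used here, and no treatment is labelled in either group. The testes were freed of their outer capsule and dissociated with accutase, a mild enzyme mix. The labels call the cells stroma cells, but cells with spermatocyte or spermatid markers far outnumbered those with fibroblast markers. Of the cells analysed here, 2734 came from the young and 5689 from the aged library.

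Collagens are secreted or membrane proteins in which 3 chains wind into a triple helix. Fibrillar chains such as Col1a1, Col1a2 and Col3a1 build the fibres of connective tissue, type IV chains build the network of basement membranes, and type VI chains form beaded filaments around cells. Fibril-associated collagens sit on fibres or at tissue junctions, multiplexins lie in basement membrane zones, and transmembrane collagens are anchored in the plasma membrane. In the testis, basement membrane and collagen fibres surround the seminiferous tubules, inside which spermatogonia, spermatocytes and spermatids develop, while Leydig cells, macrophages and fibroblasts lie between the tubules.

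Upstream sequence is shown here for 4 chains described below. Col1a2 was among the highest chains of fibroblast-like and young Leydig-like cells, Col16a1 of spermatocyte-like cells and Col20a1 of elongating spermatid-like cells. None of them was confined to these classes. Col4a1 is shown as part of a gene pair with adjoining starts. Each run holds 250 bases before and 50 bases after the RefSeq start, 5′ to 3′ on the gene's own strand, in build GRCm38.p6. Capitals mark matches, on either strand, to CCAAT (the CCAAT box, in 37.4% of all 32851 windows of this length), TATAAA (the TATA box, 13.6%), GGGCGG (the GC box, 35.7%) or TGACGTCA (the cAMP response element, 1.79%), and the matches in these windows do not overlap each other.
Col1a2, chr6:4505368-4505667, plus strand: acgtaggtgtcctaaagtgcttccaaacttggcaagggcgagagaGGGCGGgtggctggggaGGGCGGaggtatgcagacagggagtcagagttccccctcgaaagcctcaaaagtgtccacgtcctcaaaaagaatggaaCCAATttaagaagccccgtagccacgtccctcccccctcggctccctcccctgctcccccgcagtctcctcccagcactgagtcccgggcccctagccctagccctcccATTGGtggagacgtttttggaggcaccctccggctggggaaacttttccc
Col4a1, chr8:11312777-11313076, minus strand: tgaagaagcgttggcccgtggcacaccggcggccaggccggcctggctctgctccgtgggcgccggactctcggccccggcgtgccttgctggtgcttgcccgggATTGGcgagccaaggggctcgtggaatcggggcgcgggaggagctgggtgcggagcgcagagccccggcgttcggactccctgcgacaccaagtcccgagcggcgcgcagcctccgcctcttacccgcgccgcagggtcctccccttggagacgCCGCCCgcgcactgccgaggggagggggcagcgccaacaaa
Col16a1, chr4:130047590-130047889, plus strand: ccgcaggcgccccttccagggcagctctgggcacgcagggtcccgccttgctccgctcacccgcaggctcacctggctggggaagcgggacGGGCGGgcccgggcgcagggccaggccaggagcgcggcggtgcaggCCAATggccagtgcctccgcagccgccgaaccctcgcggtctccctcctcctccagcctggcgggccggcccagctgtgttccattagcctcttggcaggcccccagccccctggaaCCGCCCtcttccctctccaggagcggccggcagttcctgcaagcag
Col20a1, chr2:180986285-180986584, plus strand: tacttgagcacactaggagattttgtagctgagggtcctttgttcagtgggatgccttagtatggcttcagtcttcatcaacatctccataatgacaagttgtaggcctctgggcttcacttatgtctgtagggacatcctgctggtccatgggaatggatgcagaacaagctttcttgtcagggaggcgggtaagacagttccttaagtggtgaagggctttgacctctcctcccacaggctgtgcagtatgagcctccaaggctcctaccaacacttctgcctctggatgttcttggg
The Col1a2 window held 4 matches, that of Col16a1 held 3 and that of Col4a1 held 2, while none of the motifs was found in the Col20a1 window. A match is a description of these letters and not a binding site. Of the 44 members, 35 had at least 1 window in the RefSeq table. In the annotation, the starts of Col4a1 (minus strand) and Col4a2 (plus strand) overlap by 22 bases on chromosome 8, and those of Col4a4 (minus strand) and Col4a3 (plus strand) lie 72 bases apart on chromosome 1.

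A level is the sum of a gene's counts in the cells of 1 class and 1 library, per 1000000 counts of all genes (CPM), with a 95% exact Poisson interval in parentheses that covers counting error only. Levels of different chains are compared per 1000 bases of the longest annotated coding transcript (CPM per kb). Whether counts scale with transcript length is not given in the sources used here, and the order of chains by CPM can differ. With 1 library per age there is no replicate, so no p-value is given and differences are described by size alone, with exact binomial intervals that again cover counting error. Cells were clustered without the collagen genes, and clusters were named from marker lists that hold no collagen gene. The named classes held 660 young and 2288 aged spermatocyte-like cells, 490 and 807 round spermatid-like, 186 and 426 elongating spermatid-like, 1085 and 580 Leydig-like, 17 and 130 stromal fibroblast-like, and 38 and 70 macrophage-like cells. The aged library further held 33 Sertoli-like cells and 102 cells of cluster 17, against none and 1 in the young library. Cluster 17 passed the naming limits as spermatogonia-like, but its markers were mixed: in the aged cells the 10 spermatogonia markers summed to 4357 CPM and the macrophage markers to 4826 CPM, and the 1 young cell had no count of a spermatogonia marker. It is therefore called by its number here. Unnamed clusters took 9.40% of young and 22.0% of aged cells. The median total per cell was 15629.5 counts in the young library and 11381 in the aged one, and 35 cell indices occurred in both libraries.

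Counts of collagen genes were found in every named class of 10 or more cells, and the kinds of chain differed between classes. The stromal fibroblast-like cells had the highest summed level, at 8177 CPM (7552 to 8841) in young cells and 5639 CPM (5316 to 5977) in aged cells. Round spermatid-like cells followed at 488 and 537 CPM, elongating spermatid-like cells at 463 and 525 CPM, Leydig-like cells at 298 and 284 CPM, and spermatocyte-like cells at 243 and 253 CPM. Macrophage-like cells had 40.6 CPM from 7 counts and 96.2 CPM from 15 counts, and in them no member reached 10 counts. Sertoli-like cells of the aged library had 181 CPM from 9 counts. Free RNA, estimated from the level of spermatid transcripts, came to 20.6% and 14.9% of counts in macrophage-like and 66.8% in Sertoli-like cells. Whether the collagen counts of these classes lie above free RNA was not tested. Of the 44 members, 38 reached 10 counts and 30 reached 50 counts in at least 1 named class of 1 library. The members that stayed under 10 counts in every named class were Col5a3, Col6a6, Col8a2, Col9a2, Col10a1 and Col13a1.

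**Figure D1:**
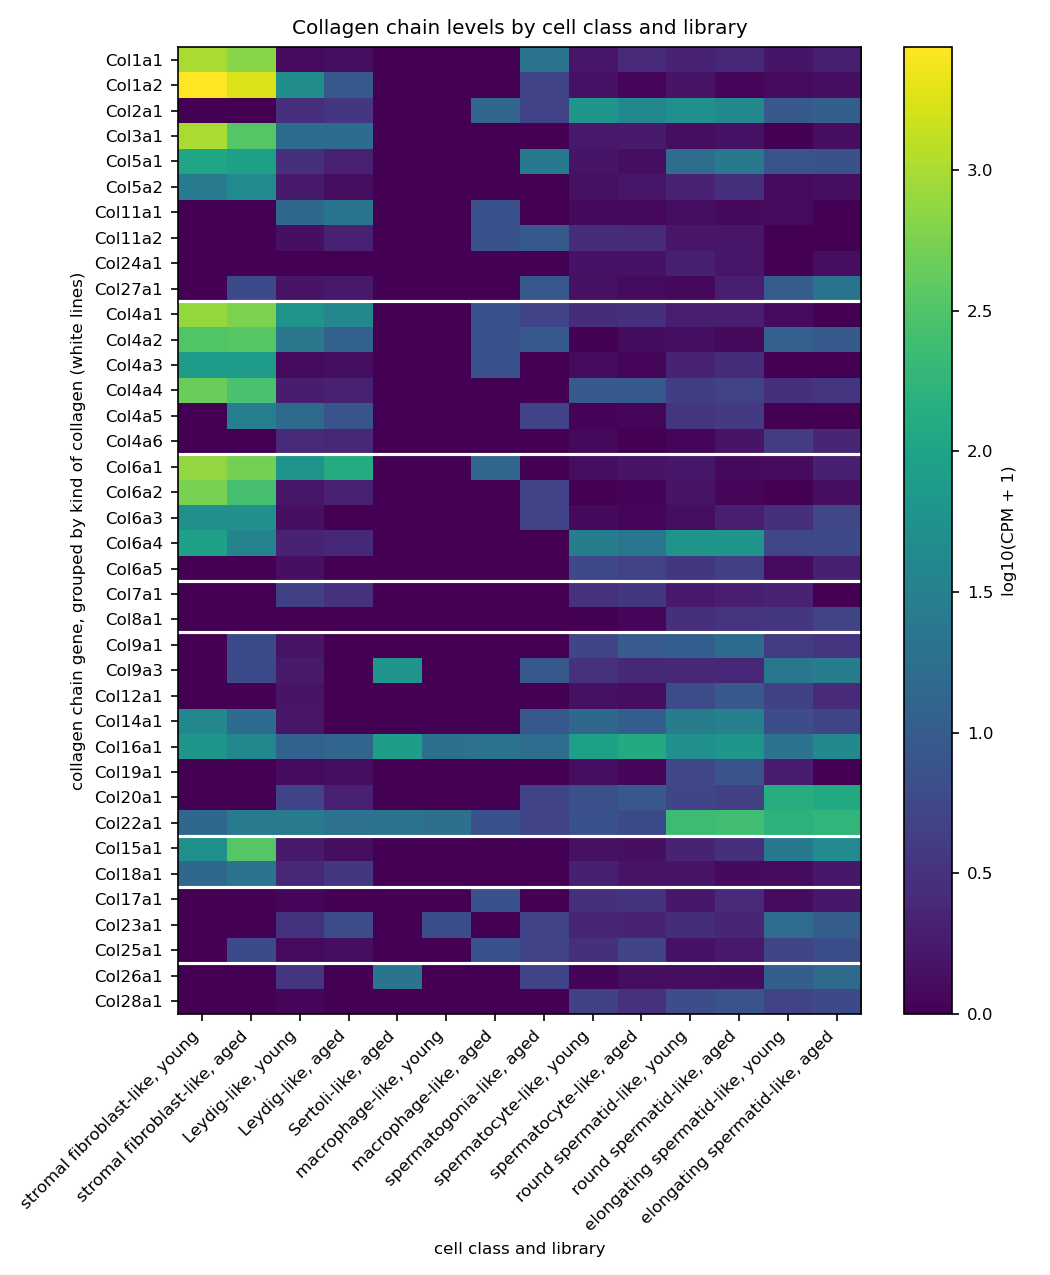
Level of the 38 chains that reached 10 counts in a class, as log10(CPM + 1) in colour, with 1 row per chain and 1 column per class and library of at least 10 cells. The column labelled spermatogonia-like is cluster 17, whose markers were mixed. Rows are grouped by kind of collagen, from fibrillar at the top to other collagens at the bottom. Col1a1, Col1a2, Col3a1, Col4a1 and Col6a1 are brightest in the stromal fibroblast-like columns, and Col16a1, Col22a1 and Col20a1 in the germ cell columns.

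Fibrillar chains gave the largest share of collagen counts in stromal fibroblast-like cells, and fibril-associated chains in the spermatocyte-like and both spermatid-like classes. Fibrillar chains made up 59.8% of the collagen counts of young and 52.6% of those of aged stromal fibroblast-like cells, against 15% and 13.1% in round spermatid-like cells. Fibril-associated chains made up 1.42% and 1.58% in stromal fibroblast-like cells, but 49.8% and 62.3% in spermatocyte-like, 67.5% and 69.6% in round spermatid-like and 76.3% and 72.1% in elongating spermatid-like cells. In the aged cells of cluster 17, with 37 collagen counts, fibrillar chains held 48.6% (31.9 to 65.6) and fibril-associated chains 27.0%. Basement membrane chains took 33.0% of the collagen counts of young and 20.6% of those of aged Leydig-like cells, and beaded filament chains 20.6% and 46.0%. In the young library, 17 of 39 members with 10 or more counts had their highest CPM in the stromal fibroblast-like class, beside 14.8% of all genes. In the aged library it was 16 of 40, beside 9.99% of all genes, and 12 when a class needed 10 counts of the member, an alternative chosen after seeing the data. In the young library the highest level lay in spermatocyte-like cells for 5 members (24.3% of all genes), in round spermatid-like cells for 6 (18.5%), in elongating spermatid-like cells for 8 (14.2%), in Leydig-like cells for 3 (15.7%) and in macrophage-like cells for none (12.4%). In the aged library the numbers in these classes were 3 (17.2%), 9 (16.6%), 5 (12.1%), 2 (9.13%) and 2 (7.72%), with 1 in cluster 17 (19%) and 2 in Sertoli-like cells (8.32%). Several of these highest levels rest on 1 to 3 counts.

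All 12 markers of the stromal fibroblast-like class were detected in it, summing to 27974 CPM in young and 25844 CPM in aged cells. Of the peritubular myoid markers, 3 of 8 were detected in young cells, at a sum of 129 CPM, and 7 of 8 in aged cells, at 313 CPM. Acta2, the actin of smooth muscle, was at 0 in the young cells and detected in the aged ones. Of the endothelial markers, 2 of 9 were detected in young cells (155 CPM) and 3 of 9 in aged cells (114 CPM), with Kdr, Tie1, Cldn5, Emcn and Flt1 at 0 in both. The part of these markers in the levels of the class was not tested. The class was small and shallow, with a median total of 4588 counts in young cells and 1419.5 in aged ones, so that 1 count is worth 12.9 CPM in young cells. Its age groups were not compared, because the young library held 17 such cells.

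Among fibrillar chains of this class, Col1a2, the second chain of type I collagen, stood at 2743 CPM (2386 to 3138) in young cells and 1792 CPM (1612 to 1987) in aged cells. Col1a1, the first chain of type I, stood at 996 and 665 CPM, and Col3a1, the chain of type III collagen in elastic tissue, at 996 and 338 CPM. Per 1000 bases, Col1a2 was the highest of all members in both libraries, at 513 and 335 CPM per kb, against 168 and 112 CPM per kb for Col1a1. Both type I chains were found in 14 of 17 young and 42 of 130 aged cells. Col5a1 and Col5a2, chains of the type V collagen that joins type I fibres, reached 104 and 25.9 CPM in the young library from 8 and 2 counts, and 89.4 and 44.7 CPM in the aged library from 18 and 9 counts. No count of Col2a1, the chain of cartilage fibres, was found in this class in either library.

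Basement membrane chains of the stromal fibroblast-like class were led by Col4a1 at 776 and 571 CPM and Col4a2 at 323 and 348 CPM, the pair that forms the common type IV network. Col4a4, a chain of the specialised type IV network of kidney and other sites, reached 453 and 278 CPM, and its partner Col4a3 reached 77.6 and 79.4 CPM. Col4a6 had no count there, and Col4a5 had none in the young and 6 in the aged cells. Among beaded filament chains, Col6a1 stood at 750 and 526 CPM, Col6a2 at 556 and 268 CPM, and Col6a3 at 51.8 and 54.6 CPM. Col15a1, a multiplexin of basement membrane zones, had 4 counts in young cells (51.8 CPM) and 68 counts in aged cells (338 CPM). These 68 counts came from 30 of 130 cells, and the young value has an interval of 14.1 to 133 CPM. All 17 young and 123 of 130 aged cells held a count of at least 1 member, with a median of 10 and 4 members per cell.

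In Leydig-like cells 17 members reached 10 counts in the young library and 10 in the aged one, against 8 and 12 in the far fewer stromal fibroblast-like cells. In the young library the highest members per 1000 bases were Col6a1 at 14.4, Col1a2 at 9.19, Col4a1 at 8.88 and Col4a2 at 3.48 CPM per kb. In the aged library they were Col6a1 at 31.3, Col4a1 at 5.76, and Col11a1, a minor fibrillar chain, and Col3a1, both at 2.69 CPM per kb. Col11a1 had its highest level over all named classes in Leydig-like cells in both libraries, at 13.4 and 20.7 CPM. Free RNA, estimated from the level of spermatid transcripts in these cells, amounted to 11.2% of young and 6.42% of aged counts. That share would bring 9.65 and 4.85 CPM of Col22a1, against the 25.5 and 18.2 CPM found, and 5.06 and 2.496 CPM of Col2a1, against 2.03 and 2.49 CPM. The same estimate gave at most 1.39 CPM for Col6a1, Col4a1 or Col1a2 in either library.

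Chains that assemble with each other were unevenly present in Leydig-like cells. Col1a1 gave 2 of the 390 type I counts of the young Leydig-like cells, a share of 0.513% (0.0622 to 1.84, exact binomial), whereas it gave 26.6% (21.6 to 32.1) in young and 27.1% (23.2 to 31.2) in aged stromal fibroblast-like cells. In aged Leydig-like cells Col1a1 gave 1 of 23 counts, 4.35% (0.11 to 21.9), an interval that overlaps the young fibroblast-like one, while that of young Leydig-like cells overlaps neither. Col6a2, which joins Col6a1 in the same filament, had 5 counts beside 465 of Col6a1 in young and 3 beside 360 in aged Leydig-like cells. Col6a1 accordingly made up 98.9% and 99.2% of that pair, against 57.4% and 66.2% in stromal fibroblast-like cells. Col4a1 and Col4a2 were both present, with Col4a1 at 72.4% and 78.1% of the pair in Leydig-like and 70.6% and 62.2% in stromal fibroblast-like cells. Elongating spermatid-like cells held the pair the other way round, with 37 counts of Col4a2 and 1 of Col4a1 in the young library and 24 and 0 in the aged one.

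**Figure D2:**
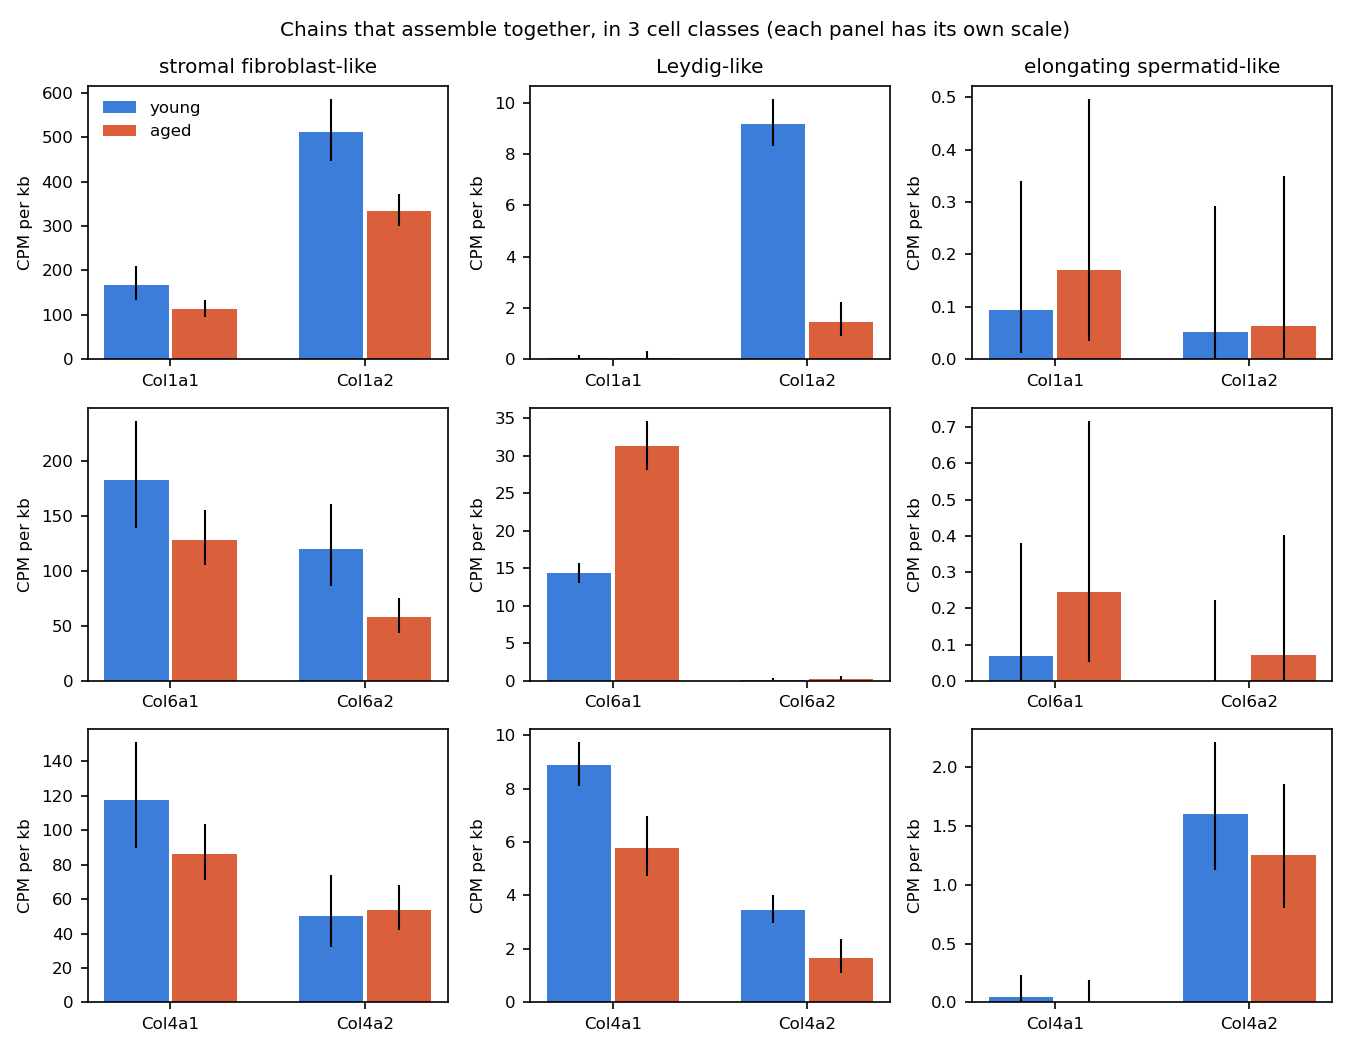
Level of 3 pairs of chains that assemble together, in CPM per kb, for stromal fibroblast-like, Leydig-like and elongating spermatid-like cells of the young (blue) and aged (orange) library, with each panel on its own axis from 0. Bars are single libraries and error bars 95% Poisson intervals for counting error. Leydig-like cells show Col1a2 and Col6a1 with bars near 0 for Col1a1 and Col6a2, and elongating spermatid-like cells show Col4a2 with Col4a1 at or near 0.

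Spermatocytes, the cells in meiosis, were led by Col16a1, a fibril-associated collagen, at 88.7 CPM (84.7 to 92.7) in young cells and 125 CPM (121 to 128) in aged cells. Col2a1 followed at 60.8 and 39.6 CPM, Col6a4, a type VI chain, at 26.8 and 21.1 CPM, and Col14a1, a fibril-associated collagen, at 13.3 and 9.52 CPM. Per 1000 bases the order of these 4 chains was the same in both libraries, from 17.0 and 24.0 CPM per kb for Col16a1 down to 2.06 and 1.47 for Col14a1. A count of Col16a1 was present in 88.8% of the young spermatocyte-like cells and in 81.6% of the aged ones, and in 18.8% and 22.8% after each cell was thinned to 2000 counts. In macrophage-like cells the unthinned share was 7.89% and 4.29%, at median totals of 4447.5 and 1976 counts against 30664.5 and 17056.5 in spermatocyte-like cells, and the thinned share was 0% in both. Free RNA, estimated from Leydig cell transcripts, came to 1.96% and 2.69% of counts in this class and would bring 1.16 and 2.91 CPM of Col16a1. Col16a1, Col11a2 (a minor fibrillar chain) and Col25a1 (a transmembrane collagen known from neurons) were at least 2 times as high, in both libraries, as in the pooled cells of all other named classes. Fibroblast-like cells give few counts to such a pool, so a member can pass and still be higher in a single class. The share of all genes that pass this rule was not measured for any germ cell class, so the number of members passing cannot be judged. Col11a2 and Col25a1 were low, at 1.77 and 1.61 CPM and at 2.003 and 3.84 CPM, and Col25a1 was higher in elongating spermatid-like cells, at 4.20 and 5.71 CPM. In the aged library, Col11a2 stood at 7.94 CPM in cluster 17, from 2 counts.

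Round spermatids, the haploid cells after meiosis, carried Col22a1, a fibril-associated collagen of tissue junctions, at 223 CPM (216 to 231) in young cells and 243 CPM (235 to 252) in aged cells. That level was 8.09 times that over all other named classes in the young and 14.2 times in the aged library. The share of each class in that pool differed between the libraries. The next highest class, elongating spermatid-like cells, stood at 160 and 182 CPM. A count of Col22a1 was present in 99.0% of the young cells and 92.2% of the aged ones, and in 36.7% and 39.3% after thinning, whereas thinned macrophage-like cells showed 2.63% and 2.86%. Free RNA would bring 2.57 and 2.68 CPM. Col16a1 stood at 53.1 and 64.5 CPM, Col6a4 at 59.4 and 61.0, Col2a1 at 51.7 and 41.1 and Col14a1 at 27.9 and 30.7 CPM. Per 1000 bases, Col22a1 at 25.4 and 27.6 CPM per kb was followed by Col16a1 at 10.2 and 12.4, while Col2a1 (10.1 and 8.04) and Col6a4 (8.06 and 8.28) took opposite orders in the libraries. Col5a1 stood at 15.9 and 22.9 CPM with its partner Col5a2 at 1.15 and 2.00 CPM. Col1a1 and Col1a2 together gave 26 counts in the young and 21 in the aged round spermatid-like cells. Against the pooled other named classes, 9 members were at least 2 times as high in both libraries: Col22a1, Col6a4, Col14a1, Col5a1, Col12a1, Col19a1, Col8a1, Col4a3 and Col5a2. The share of all genes that did so was not measured. Of these 9 members, Col5a1, Col5a2 and Col4a3 stood higher in the small stromal fibroblast-like class, as given above. In its young cells alone, so did Col6a4 at 90.6 CPM from 7 counts and Col14a1 at 38.8 CPM from 3 counts. In its aged cells these 2 chains stood at 34.8 and 14.9 CPM. Col8a1 stood higher in elongating spermatid-like cells, at 2.52 and 4.03 CPM from 9 and 12 counts. Col12a1 and Col19a1, both fibril-associated, stood at 5.13 and 4.45 CPM in young and 8.09 and 6.62 CPM in aged cells, and Col8a1, a chain of network-forming type VIII collagen, at 2.02 and 2.31 CPM.

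Elongating spermatids, in which the nucleus condenses, shared Col22a1 with the round stage, at 160 CPM (147 to 174) and 182 CPM (167 to 198). They added Col20a1, a fibril-associated collagen, at 139 CPM (127 to 152) and 122 CPM (110 to 135), against 4.18 and 3.54 CPM in round spermatid-like and 5.92 and 7.59 CPM in spermatocyte-like cells. Per 1000 bases Col20a1 was the highest chain of the class in both libraries, at 27.7 and 24.3 CPM per kb beside 18.2 and 20.6 for Col22a1. By CPM, Col22a1 was the highest in both. A further 6 members were at least 2 times as high as in the pooled other named classes in both libraries. They were Col15a1 at 23.5 and 44.7 CPM, Col9a3, a type IX chain, at 21.3 and 26.5 CPM, Col23a1, a transmembrane collagen, at 15.9 and 9.40 CPM, Col26a1 at 10.1 and 14.4 CPM, Col27a1, a fibrillar chain of cartilage, at 8.95 and 19.8 CPM, and Col4a2 at 10.3 and 8.06 CPM. Col15a1 and Col4a2 stood higher in stromal fibroblast-like cells, and Col4a2 also in Leydig-like cells, at 22.4 and 10.7 CPM. In the aged library Col9a3 and Col26a1 stood higher in Sertoli-like cells, at 60.3 and 20.1 CPM, from 3 and 1 counts. Free RNA amounted to 2.65% and 2.74% of counts, which would bring 0.382 and 0.367 CPM of Col20a1. Of the type IX chains, Col9a1 had 91 and 352 counts and Col9a3 had 44 and 55 in spermatocyte-like cells, whereas Col9a3 had 76 counts beside 11 of Col9a1 in young and 79 beside 7 in aged elongating spermatid-like cells. Col9a2 had 4 counts over all cells.

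Some of these genes overlap others, and the sources do not say whether reads were counted by strand. Overlap was measured over whole genes, introns included, so shared bases need not be exon bases. Col9a3 shares 234 bases with Tcfl5 on the opposite strand, a transcription factor gene of the male germ line at 282 and 278 CPM in elongating spermatid-like cells. Tcfl5 was higher in spermatocyte-like cells, at 630 and 685 CPM, where Col9a3 stood at 2.05 and 1.38 CPM. Col12a1 shares 2132 bases with 4930562D21Rik on the opposite strand, which stood at 9.65 and 9.94 CPM in round spermatid-like cells, above Col12a1 itself, so that the Col12a1 level and its age ratio there are uncertain. Gm47575, opposite Col6a4, stood at 2.90 and 3.70 CPM in the same class. Gm12426, antisense to Col15a1, had no count in elongating spermatid-like cells. Col22a1 overlaps an antisense gene (Gm16308) and Col20a1 a same-strand gene (BX649560.1), neither of which is among the gene columns of the study. Whether reads of these neighbours enter the counts of Col22a1 and Col20a1 was not tested.

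The 2 clusters of elongating spermatid-like cells carried different chains. In cluster 13, with 48 young and 100 aged cells, Col15a1 stood at 56.9 and 83.5 CPM, Col9a3 at 51.8 and 48.8, Col26a1 at 24.1 and 25.1 and Col27a1 at 23.3 and 37.9 CPM. In cluster 7, with 138 young and 326 aged cells, the same 4 chains lay between 0 and 2.81 CPM. Col22a1 stood at 279 and 289 CPM in cluster 13 but 86.2 and 64.0 CPM in cluster 7, and Col20a1 at 98.4 and 119 CPM against 164 and 125 CPM. Across the 3 clusters of round spermatid-like cells, Col22a1 ran from 162 and 168 CPM in cluster 6 through 250 and 260 in cluster 8 to 343 and 326 in cluster 11, while Col16a1 ran from 70.1 and 97.7 down to 19.1 and 29.9 CPM. Within the spermatocyte-like class, Col16a1 lay at 70.5 and 66.3 CPM in cluster 0 and 235 and 216 CPM in cluster 12, and Col2a1 at 71.9 and 64.0 against 10.7 and 8.11 CPM. For Col22a1 and Col16a1 in these clusters the order was the same in both libraries. Cluster 12 held only 13 young cells beside 213 aged ones, and its young Col2a1 level rests on 3 counts.

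**Figure D3:**
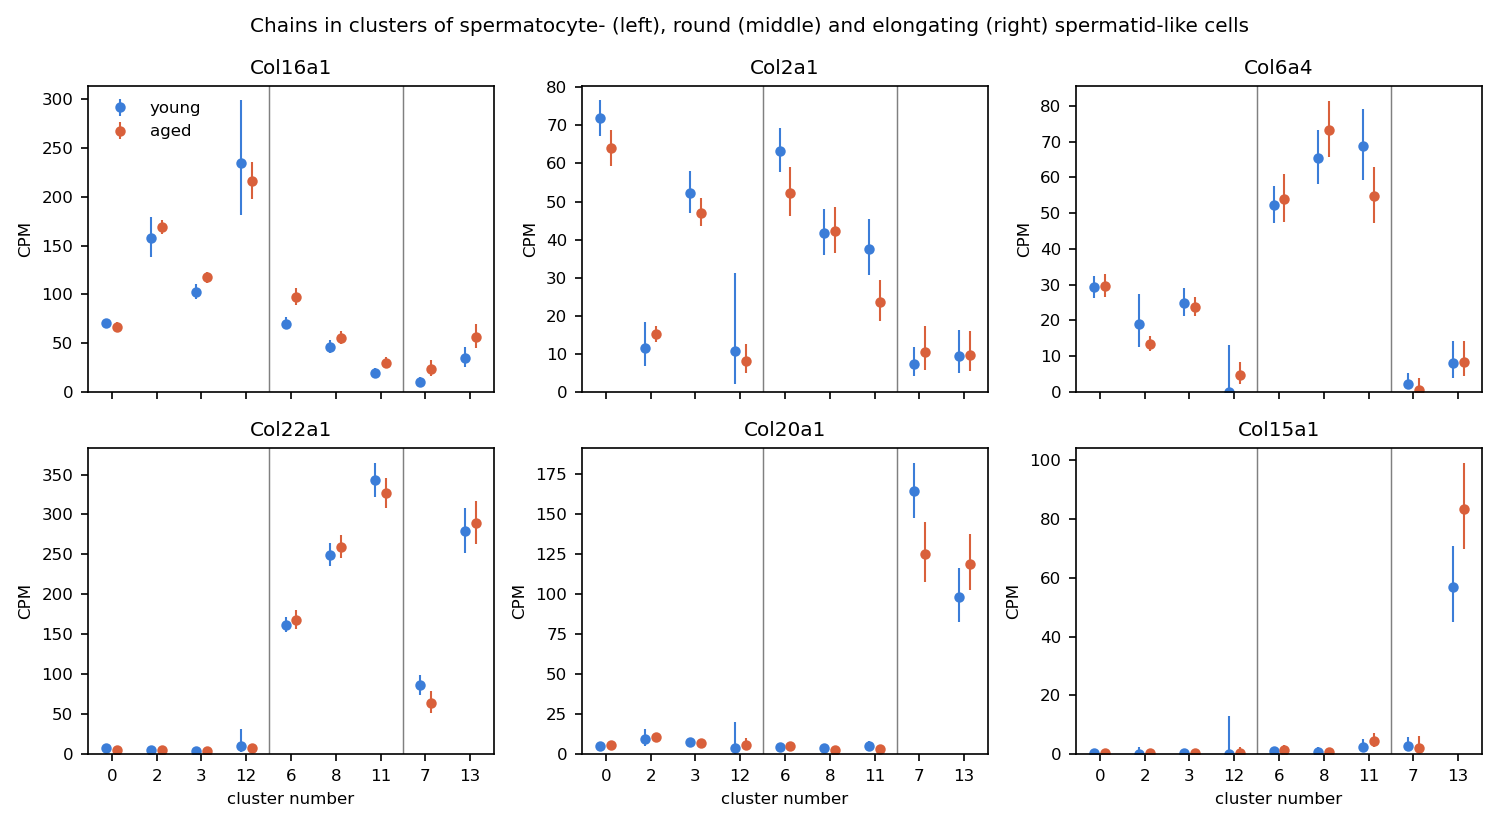
Level of 6 chains in CPM (vertical axes, from 0) in each cluster of spermatocyte-like (clusters 0, 2, 3 and 12), round spermatid-like (6, 8 and 11) and elongating spermatid-like cells (7 and 13) of the young (blue) and aged (orange) library. Error bars are 95% Poisson intervals for counting error. Col22a1 is near 0 left of the first grey line, Col20a1 is high right of the second, and Col15a1 stands out in cluster 13 alone among the 9 clusters.

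The ages were compared in 4 classes, those with 50 or more cells in each library. The aged over young ratio of the summed collagen level was 1.04 (1.004 to 1.07) in spermatocyte-like, 1.10 (1.06 to 1.14) in round spermatid-like, 1.13 (1.06 to 1.22) in elongating spermatid-like and 0.954 (0.879 to 1.03) in Leydig-like cells. None of these sums differed by 1.5-fold. The ratio of elongating spermatid-like cells fell below 1 in cluster 7 alone (0.854) and as a mean over cells (0.879), and reached 1.69 when each cell took its class from its own marker score.

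Single chains differed by more than their sum. In spermatocyte-like cells, 3 of 18 members with 50 or more counts were at least 1.5-fold higher in the aged library, where 16.1% of all genes were, and 2 were at least 1.5-fold lower, where 7.46% of all genes were. The higher ones were Col1a1 at 2.78 (1.52 to 5.49), from 13 counts in 8 young cells and 67 counts in 39 aged cells, Col9a1 at 2.09 (1.65 to 2.66) and Col25a1 at 1.92 (1.36 to 2.76). The lower ones were Col2a1 at 0.651 (0.605 to 0.701) and Col28a1, known from nerve sheaths, at 0.580 (0.422 to 0.798). Most young cells (419 of 660) lay in cluster 0, while 758 of the 2288 aged cells lay in cluster 2. Within clusters 0, 2 and 3 the Col2a1 ratio was 0.890, 1.31 and 0.900, and the Col9a1 ratio 1.41, 1.005 and 1.49. The Col1a1 ratio was 3.99 (1.94 to 9.04) in cluster 0 and 3.14 (0.925 to 16.6) in cluster 3, there from 3 young counts. For Col25a1 the ratio was 1.498, 0.882 and 1.68 in clusters 0, 2 and 3. That of Col28a1 was 0.680 and 0.790 in clusters 0 and 3. The share of cells in each cluster differed between the libraries, and its part in the class ratios was not tested beyond these values.

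In round spermatid-like cells, 2 of 15 members were at least 1.5-fold higher in the aged library (3.79% of all genes) and none was as much lower (2.87%). They were Col9a1 at 1.60 (1.29 to 2.002) and Col12a1 at 1.58 (1.16 to 2.15). Col22a1, the most abundant chain of the class, had a ratio of 1.09 (1.04 to 1.14), and Col6a4 of 1.03 (0.932 to 1.13). In elongating spermatid-like cells, 3 of 10 members were at least 1.5-fold higher (6.15% of all genes) and 1 as much lower (2.84%). These were Col27a1 at 2.21 (1.42 to 3.52), Col16a1 at 2.08 (1.53 to 2.83), Col15a1 at 1.90 (1.44 to 2.53) and Col23a1 at 0.590 (0.361 to 0.943). Col15a1 and Col27a1 come from cluster 13, where their ratios were 1.47 and 1.63, and Col27a1 came to 0.957 once cells were thinned. Median totals in this class were 15666.5 counts per young and 4450 per aged cell.

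**Figure D4:**
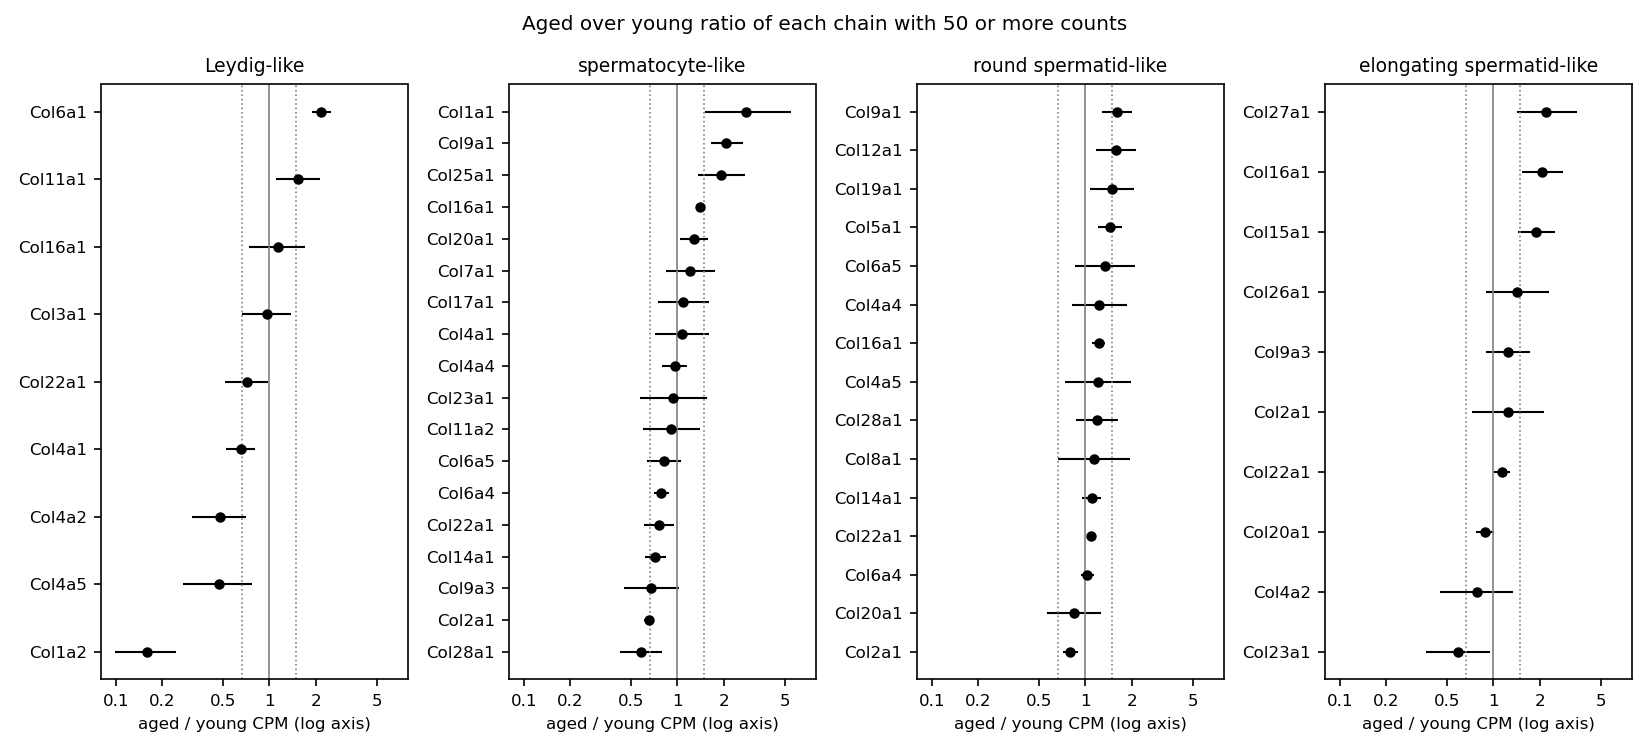
Aged over young ratio of CPM for each chain with 50 or more counts over both libraries, by class, on a log axis, with 95% binomial intervals for counting error. The solid line marks a ratio of 1 and the dotted lines 1.5-fold in either direction. Col6a1 and Col1a2 lie at opposite ends among Leydig-like cells, and most chains of round spermatid-like cells lie between the dotted lines.

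In Leydig-like cells, 2 of 9 members were at least 1.5-fold higher in the aged library (6.52% of all genes) and 4 at least 1.5-fold lower (8.46%). Col6a1 stood at 58.9 CPM (53.7 to 64.5) in young cells and at 128 CPM (115 to 142) in aged cells, 2.18 times as high (1.89 to 2.503), and Col11a1 had a ratio of 1.54 (1.10 to 2.14), which came to 1.25 (0.335 to 3.31) and 1.38 (0.448 to 6.90) within the Leydig-like clusters 1 and 5 described next. Col1a2 stood at 49.1 CPM in young cells and 7.83 CPM in aged cells, which gives 0.159 (0.0987 to 0.245). The basement membrane chains Col4a1, Col4a2 and Col4a5 had ratios of 0.648, 0.477 and 0.469, and Col3a1 stood at 15.5 and 14.96 CPM. Dcn, a small proteoglycan that binds fibrils and marks fibroblasts, moved with Col1a2, at 57.5 and 16.4 CPM, and the fibroblast markers found, 10 of 12 in young cells and 8 of 12 in aged ones, summed to 262 and 154 CPM, with Fbln1 and Dpt at 0 in both. Their part in the result was not tested.

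The age groups of the Leydig-like class lay in different clusters. Cluster 1, led by kallikrein genes such as Klk1b27, took 1057 young cells and 59 aged ones, and cluster 5, led by Fetub and Saa3, took 28 and 521. Col6a1 was higher in the aged library in both clusters, at 58.8 and 168 CPM in cluster 1 (ratio 2.85, 2.01 to 3.94) and at 60.9 and 125 CPM in cluster 5 (ratio 2.04, 1.15 to 3.998). Col1a2 was not lower within cluster 1, where it stood at 50.3 CPM in young cells and, from 21 counts, at 88.0 CPM in aged ones (ratio 1.75, 1.07 to 2.72), and in cluster 5 it had 1 count in each library. Col4a1 stood at 58.7 and 101 CPM in cluster 1 (ratio 1.71) and at 60.9 and 32.3 CPM in cluster 5 (ratio 0.530, 0.288 to 1.07). Col3a1, level over the class, stood at 15.1 and 46.1 CPM in cluster 1 (ratio 3.06, 1.49 to 5.68) and at 30.5 and 12.1 CPM in cluster 5 (ratio 0.396, 0.163 to 1.16). In cluster 1 the ratio was 0.742 for Col4a2, from 4 aged counts, and 0.872 for Col4a5, from 3, so that neither passed 1.5-fold there. The whole set of chains came to 299 and 524 CPM in cluster 1 and to 254 and 262 CPM in cluster 5. For Col1a2 and Col4a1 the class ratio below 1 was not found within cluster 1.

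**Figure D5:**
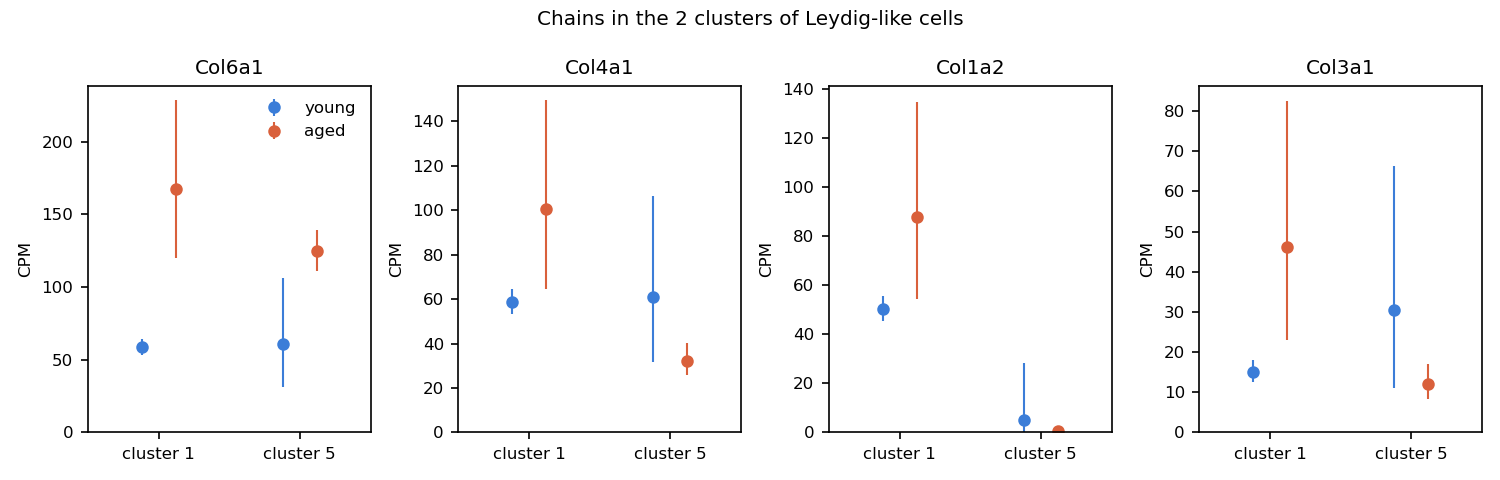
Level of Col6a1, Col4a1, Col1a2 and Col3a1 in CPM (vertical axes, from 0) in the 2 clusters of Leydig-like cells of the young (blue) and aged (orange) library. Error bars are 95% Poisson intervals for counting error, wide where a cluster holds 59 aged or 28 young cells. Col6a1 is higher in aged cells of both clusters, and Col1a2 is near 0 in cluster 5 of both libraries.

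Other genes of the collagen pathway were described from 6 lists. Of 19 enzymes and chaperones that make collagen, P4hb, a subunit of prolyl hydroxylase, stood at 479 and 472 CPM in stromal fibroblast-like and 391 and 336 CPM in Leydig-like cells, and Crtap, part of the prolyl 3-hydroxylation complex, at 349 and 402 CPM and 415 and 313 CPM. Serpinh1, the collagen chaperone, stood at 349 and 194 CPM in stromal fibroblast-like cells. The list summed to 1765 and 1574 CPM in Leydig-like cells, close to the 2161 and 2229 CPM of stromal fibroblast-like cells, although collagen chains there were at 298 and 284 against 8177 and 5639 CPM. Among 15 of these genes with 50 counts in Leydig-like cells, 1 was at least 1.5-fold higher and 1 at least 1.5-fold lower in the aged library. Of all genes in this class, 6.52% were as much higher and 8.46% as much lower. The same shares stand beside the lists below, whose few genes are too few to set apart from them.

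Among 13 genes of propeptide removal and crosslinking, Pcolce, an enhancer of procollagen C-proteinase, was higher in Leydig-like cells (1498 and 1235 CPM) than in stromal fibroblast-like cells (763 and 591 CPM). Adamts2, which removes the amino propeptide, and Bmp1, the C-proteinase, stood at 582 and 272 CPM in young and 343 and 179 CPM in aged stromal fibroblast-like cells. Loxl1, a crosslinking oxidase, was at 14.9 and 11.8 CPM in Leydig-like cells. Of the 6 genes with 50 counts in Leydig-like cells none passed 1.5-fold in either direction.

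Of 13 basement membrane partners, Sparc, a collagen-binding glycoprotein, reached 4710 and 3182 CPM in stromal fibroblast-like and 2547 and 1854 CPM in Leydig-like cells. The laminin chain genes Lama2 and Lamb1 stood at 1048 and 608 CPM in young and 794 and 362 CPM in aged stromal fibroblast-like cells, and Lamb2 at 62.3 and 75.5 CPM in Leydig-like cells. In Leydig-like cells 10 genes of this list had 50 counts, of which none was at least 1.5-fold higher and 2 were at least 1.5-fold lower in the aged library.

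Of 11 receptors, Itgb1, the shared beta chain of collagen-binding integrins, stood at 543 and 630 CPM in stromal fibroblast-like and 182 and 196 CPM in Leydig-like cells. Ddr2, a receptor kinase for fibrillar collagen, was at 246 and 333 CPM and at 31.0 and 31.7 CPM, and Itga1 at 77.6 and 89.4 CPM in stromal fibroblast-like cells. Of 11 genes of degradation, Timp2, an inhibitor of metalloproteinases, led with 4128 and 4572 CPM in stromal fibroblast-like and 1871 and 2100 CPM in Leydig-like cells. Timp3 stood at 207 and 134 CPM and at 134 and 184 CPM in these classes, and the metalloproteinase gene Mmp14 at 181 and 104 CPM in stromal fibroblast-like cells. The receptors had 3 and the degradation list 5 genes with 50 counts in Leydig-like cells, of which 1 receptor passed 1.5-fold, higher in the aged library.

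Among 12 fibril partners, Dcn reached 10597 and 12242 CPM in stromal fibroblast-like cells, followed by the proteoglycans Bgn at 1061 and 1057 CPM and Ogn at 880 and 794 CPM. In Leydig-like cells Ogn was 2.84-fold higher (2.61 to 3.10) in the aged library, at 129 and 368 CPM, while Dcn had a ratio of 0.285 (0.206 to 0.386). The germ cell classes of the aged library held between 11.1 and 15.6 CPM of the whole list in the spermatocyte-like and both spermatid-like classes, although their collagen chains summed to between 253 and 537 CPM.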

How the data were processed

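For each age the authors deposited 1 table of whole-number counts, with cells as rows and genes as columns. Per the file headers, the aged table came from the BD Rhapsody pipeline 1.7.1 with STAR 2.5.2b, while Cell Ranger 2.11 and build mm10 are given per the submitters' processing notes. Which pipeline made the young table is unclear, so a difference in counting cannot be told apart from age. It is stated neither whether counts are of molecules or reads nor whether strand was used: both are not given in the sources used here. The tables hold 2771 young cells with 53413783 counts and 6823 aged cells with 66390904 counts.

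Cells with under 500 counts, under 200 genes or over 25% mitochondrial counts were removed, as were 36 young and 123 aged called doublets. Low counts or genes removed 0 young and 311 aged cells, and mitochondrial counts 1 and 700. The lowest total per cell was 3215 counts in the young table and 186 in the aged one. Of the aged cells analysed, 1596 lay under that young total. The tables may have been filtered differently before deposit, and the part of this in the age ratios was not tested. Cells were clustered with scanpy 1.11.5 on 2000 variable genes, 40 principal components, 15 neighbours and Leiden resolution 1, without collagen genes. Clusters were named from marker lists, with limits set after the clusters had been seen. Counts were summed by class and library, and lengths were taken from GENCODE M21. Members and lists were chosen with earlier results of these data known. Members with 50 or more counts in a class were described, with the 6 highest per class and, in germ cell classes, those at least 2 times their level elsewhere. Ratios were called by size alone, at 1.5-fold. The calculations were tested on simulated data. Alternatives varied the filters, doublets, resolution, class assignment, depth and free RNA.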

Additional observations from a re-analysis of the deposited data

Results flagged for a closer look

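Some cells of the aged library fell into clusters that were given no name and so enter no comparison. In 3 of these clusters, chains stood at 2 or more times their highest level in the named classes of that library compared. A named class was compared for a chain only with 10 or more counts of it. This left out the Sertoli-like levels of Col9a3, 60.3 CPM from 3 counts, and Col26a1, 20.1 CPM from 1 count. Cluster 4, with 568 cells and a median of 922 counts, had Col16a1 at 639 CPM and Col28a1 at 27.47 CPM. Cluster 9, with 393 cells and a median of 1496 counts, had Col22a1 at 932.1 CPM, Col16a1 at 454.3, Col9a3 at 384.8, Col27a1 at 198.7 and Col26a1 at 111.1 CPM. Its lower chains were Col9a1 at 56.96, Col19a1 at 30.56 and Col28a1 at 15.28 CPM, the last from 11 counts. Col9a3 there was 14.5 times and Col27a1 10.03 times as high as in elongating spermatid-like cells. Cluster 10, with 237 cells and a median of 14333 counts, had Col2a1 at 85.4 CPM and Col11a2 at 5.222 CPM. The young library held none of cluster 4 and 3 cells of cluster 9.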

How the results depend on the processing

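With 1 library per age, no library can be left out, and intervals cover counting error only. No paired analysis was possible because each age has a single library. The summed collagen ratio was 0.9526 in cluster 0 and 1.001 in cluster 2 of spermatocyte-like cells. It was 1.197 in round spermatid-like cells with classes by marker score and 0.9667 in cluster 11. In elongating spermatid-like cells it was 1.25 with the young table's lowest total in both libraries, 0.854 at resolution 0.5 and in cluster 7, 1.689 by marker score, 1.048 after thinning and 0.8789 as a mean over cells. In Leydig-like cells it was 1.085 after thinning and 1.752 in cluster 1. Single ratios that turned were Col25a1 (0.882) and Col2a1 (1.307) in cluster 2, Col27a1 in thinned elongating spermatid-like cells (0.9574), and Col1a2 (1.751) and Col4a1 (1.714) in cluster 1. Values for single clusters were chosen after seeing the data. Of 17 ratios past 1.5-fold, 8 stayed past it on the same side under every alternative planned. The cause of these differences was not tested. The count of members highest in stromal fibroblast-like cells ran from 12 to 18, and had no value with the young table's lowest total, which left no such class.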
